A study of Mus musculus with 10 samples.

Results

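A set of 10 genes that mark the granule cells of the dentate gyrus was followed in adult mouse hippocampus with and without DLK. They were Prox1, Dsp, C1ql2, Tdo2, Calb1, Lct, Pdzd2, Plk5, Npnt and Trpc6, and they were found by matching the RefSeq accession of each array probe to the gene. This gave 14 probes for the 10 genes, among 39429 probes on the array. The filter on dim probes required Cy5 signal well above background for 5 or more of the 10 mice. It kept 12 of the 14 probes, which were tested, and each of the 10 genes kept at least 1 probe. The mice were DLK conditional knockouts (cKO, 5 mice) and DLK wild types (WT, 5 mice). DLK is a MAP kinase kinase kinase encoded by Map3k12 that acts upstream of the JNK pathway in neurons. All mice, WT included, were fed tamoxifen for 3 weeks to induce the knockdown, and each hippocampus was hybridised to its own 2-colour Agilent array. The sample was labelled with Cy5 and a commercial mouse reference RNA with Cy3 on every array, without dye swaps. The sources used here do not give the recombinase or its promoter, the deleted exons, or the sex and exact age of the mice. Levels below are log2 ratios of Cy5 over Cy3. A difference is the cKO mean minus the WT mean of 5 mice each.

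The dentate gyrus is the entry station of the hippocampal circuit, and granule cells are its principal neurons. They receive input from the entorhinal cortex and send mossy fibres to mossy cells of the hilus and pyramidal cells of CA3. New granule cells are added in the adult mouse, and the homeobox factor Prox1 is needed for granule cell identity. Whole hippocampus was measured, so fewer granule cells and less RNA per granule cell cannot be told apart.

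The arrays had median Cy5 signals of 146 to 202 and median Cy3 signals of 131.5 to 141.5, and Cy5 rose well above background for 69.6% to 76.1% of probes. Map3k12, the targeted gene, had a log2 ratio of 0.51 ± 0.24 (SD, n = 5) in cKO and 1.93 ± 0.19 (SD, n = 5) in WT hippocampus, a difference of -1.41 (SE 0.12, limma adjusted p = 0.000502), with no overlap. The position of its probe relative to the deletion is not stated. By slide, the mice were split into 4 cKO mice on slide 1, cKO replicate 2 with WT replicates 1, 2 and 4 on slide 2, and 2 WT mice on slide 3. Genotype could therefore be compared within a slide only on slide 2, with 1 cKO mouse. Striatal marker genes stood apart on WT replicate 1, where the mean log2 ratio of 9 such genes was 3.37, against 2.10 to 2.47 on the other 9 arrays. All 9 were higher there than on any other array.

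No gene of the set passed the test between genotypes. Of the 12 tested probes 0 had a limma adjusted p under 0.05, where 3 of all 28682 probes did (0.0105%). At an unadjusted p under 0.05 there was 1 of the 12, the probe of Tdo2, where 3.82% of all tested probes reached that level. It was lower in cKO mice, as were 1.04% of all tested probes at that level. With the brightest tested probe standing for each gene, 5 of the 10 genes had higher and 5 had lower values in cKO mice. Their median difference was -0.022, where the median of all 28682 probes was 0.0079. The differences of the 10 genes lay between -0.20 (Dsp) and 0.16 (Trpc6). No tested probe of the set had cKO and WT values that did not overlap, where 0.757% of all tested probes did. The adjusted p was 0.99995 for each of the 12 probes.

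**Figure D1:**
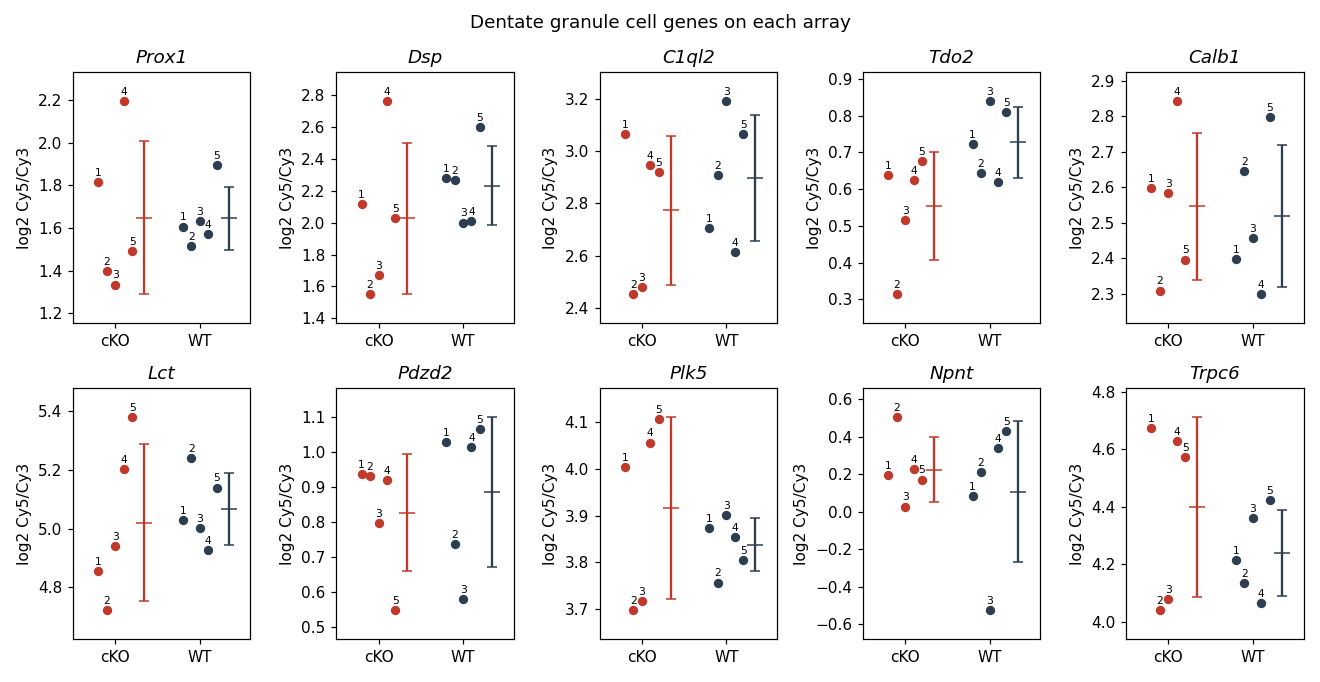
Log2 Cy5/Cy3 of the 10 genes (brightest tested probe of each) on every array, cKO mice at left in red and WT mice at right in dark blue, numbered by replicate, with the mean and SD (n = 5) beside the points. The cKO and WT points overlap in every panel, and cKO replicates 2 and 3 lie low for Prox1, Dsp, C1ql2, Plk5 and Trpc6.

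Promoter sequence is shown for 4 of the genes, because they form the pairs that varied most alike across the 10 arrays, Prox1 with Dsp and Plk5 with Trpc6. Printed are the 250 bases before a transcript start in the RefSeq promoter table, the first one listed for the gene, 5′ to 3′ on the gene's strand (GRCm38.p6), with matches to an E-box, the hexamer bound by basic helix-loop-helix factors, in capitals. They are chr1:190170828-190171077 on the minus strand for Prox1, and on the plus strand chr13:38151044-38151293 for Dsp, chr10:80356209-80356458 for Plk5 and chr9:8543892-8544141 for Trpc6. All 250 bases of the Trpc6 window lie inside the span that RefSeq lists for the gene, so it is not the sequence before the gene's outermost start. Of the Pdzd2 window, which was searched and is not printed, 76 bases lie inside the gene.
Prox1: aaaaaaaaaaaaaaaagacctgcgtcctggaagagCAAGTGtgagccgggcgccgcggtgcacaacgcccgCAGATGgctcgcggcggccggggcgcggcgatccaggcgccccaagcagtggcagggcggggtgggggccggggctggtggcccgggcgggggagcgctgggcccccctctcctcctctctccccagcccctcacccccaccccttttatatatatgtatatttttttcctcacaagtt
Dsp: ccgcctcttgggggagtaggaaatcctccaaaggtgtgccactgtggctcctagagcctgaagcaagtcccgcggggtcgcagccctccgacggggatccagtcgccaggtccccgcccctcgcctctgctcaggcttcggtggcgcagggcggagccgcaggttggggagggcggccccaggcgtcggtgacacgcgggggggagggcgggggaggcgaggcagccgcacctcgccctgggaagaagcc
Plk5: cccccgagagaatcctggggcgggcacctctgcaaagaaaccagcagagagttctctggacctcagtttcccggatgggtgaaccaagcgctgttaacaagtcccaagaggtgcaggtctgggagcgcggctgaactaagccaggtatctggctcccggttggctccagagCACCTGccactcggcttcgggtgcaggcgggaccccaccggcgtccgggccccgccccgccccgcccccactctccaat
Trpc6: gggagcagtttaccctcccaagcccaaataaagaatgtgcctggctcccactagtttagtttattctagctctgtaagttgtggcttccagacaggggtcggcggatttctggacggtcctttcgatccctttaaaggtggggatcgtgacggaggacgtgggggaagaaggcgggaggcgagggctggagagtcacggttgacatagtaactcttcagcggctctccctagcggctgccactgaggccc
Searches covered both strands of these 250 bases for 9 of the genes. The E-box CANNTG was found in 4 of the 9 (C1ql2, Lct, Prox1 and Plk5), against 66.2% of 32851 mouse promoter windows of the same length. The AP-1 motif TGANTCA, which binds the Jun proteins phosphorylated by JNK, was found in 0 of the 9, against 6.75% of all windows. The cAMP response element TGACGTCA was found in 0 of the 9, against 1.55% of all windows. No overlap between motifs arose, since only the E-box had matches, and a missing match says only that these letters are not in this window.

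Prox1, the identity factor, was the gene whose genotype means were closest. It read 1.82, 1.40, 1.33, 2.197 and 1.49 in cKO replicates 1 to 5, against 1.61, 1.52, 1.63, 1.57 and 1.89 in WT replicates 1 to 5. Of the cKO mice 3 lay below all WT mice and 1, replicate 4, lay above them. The mean was 1.65 ± 0.36 (SD, n = 5) in cKO and 1.64 ± 0.15 (SD, n = 5) in WT mice, a difference of 0.0033 (SE 0.15). The 95% interval of the difference runs from -0.31 to 0.32, or from 80.5% to 125% of the WT level. Its Cy5 signal was 137 to 331 in cKO and 191 to 281 in WT mice. The Cy3 reference signal never rose well above background for this probe, nor for those of Tdo2, Calb1 and Trpc6. For these 4 genes the log ratio is therefore no measure of the level over the reference RNA, and their genotype difference rests on the Cy5 channel and the offset of the background correction. The limit holds in part for others. Cy3 was well above background on 2 arrays for the brighter Npnt probe and on 3 for its other probe. It was so on 6 arrays for each tested Pdzd2 probe and on 7 for C1ql2.

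Tdo2 encodes tryptophan 2,3-dioxygenase, an enzyme that opens the kynurenine pathway, and had the smallest p of the set. It read 0.64, 0.31, 0.52, 0.62 and 0.68 in cKO replicates 1 to 5, against 0.72, 0.64, 0.84, 0.62 and 0.81 in WT replicates 1 to 5. Of the cKO mice 2 (replicates 2 and 3) lay below all WT mice, and the other 3 lay within the WT range. The difference was -0.17 (SE 0.077, 95% interval -0.34 to -0.0064), or 88.7% of the WT level, with an unadjusted p of 0.0430 in limma and an adjusted p of 0.99995. It ranked 933rd of 28682 by p. The spot was dim, with Cy5 signals of 57 to 105.5 in cKO and 88 to 124 in WT mice over a background of about 30, so the offset pulls its ratios together. Tdo2 was lower in cKO mice in all 23 alternatives run, by -0.35 to -0.086, and had an unadjusted p under 0.05 in 12 of them. Changes of the filter, 1 probe a gene and the replicate block kept the estimate of -0.17, so its direction could not turn. The alternatives share mice, so these counts are not separate results. The smallest adjusted p over these alternatives was 0.451. Without cKO replicate 2, the lowest mouse, the difference was -0.11 (unadjusted p = 0.114).

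Dsp encodes desmoplakin, which ties desmosomal cadherins to intermediate filaments in epithelia and heart and marks granule cells in the hippocampus. Its probe A_51_P101460 read 2.12, 1.55, 1.67, 2.77 and 2.03 in cKO replicates 1 to 5, against 2.28, 2.27, 2.001, 2.01 and 2.60 in WT replicates 1 to 5. Replicates 2 and 3 of the cKO lay below all WT mice and cKO replicate 4 lay above them. This gene had the largest difference of the set, -0.20 (SE 0.20, unadjusted p = 0.319), and also the widest spread over arrays, an SD of 0.37. The size depended on single mice. Without cKO replicate 4 the difference was -0.39 (unadjusted p = 0.0197, adjusted p = 0.99999), without cKO replicate 2 it was -0.085 (unadjusted p = 0.663), without cKO replicate 3 it was -0.12 and without WT replicate 5 it was -0.11. With array weights it was -0.0038. Cy5 signal was 509 to 1334 in cKO and 658 to 1213 in WT mice, and Cy3 was well above background on all 10 arrays. The other Dsp probe, A_51_P201884, was too dim to be tested, with Cy5 signals of 30.5 to 42 and none well above background.

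Trpc6, a cation channel opened by diacylglycerol, had the largest positive difference. It read 4.68, 4.04, 4.08, 4.63 and 4.57 in cKO replicates 1 to 5, against 4.22, 4.13, 4.36, 4.07 and 4.42 in WT replicates 1 to 5. In cKO mice 3 values lay above all WT values and 1 lay below them, with cKO replicate 3 inside the WT range. The difference was 0.16 (SE 0.13, unadjusted p = 0.248; 0.091 without cKO replicate 1 and 0.25 without cKO replicate 2), with a 95% interval of 91.6% to 136% of the WT level. Plk5, a brain-expressed polo-like kinase, also had cKO values on both sides of the WT values. It read 4.005, 3.70, 3.72, 4.06 and 4.11 in cKO replicates 1 to 5, against 3.87, 3.76, 3.90, 3.85 and 3.81 in WT replicates 1 to 5. All 5 WT mice lay between the lower 2 and the upper 3 cKO mice. The difference was 0.079 (SE 0.085, unadjusted p = 0.370; 0.031 without cKO replicate 5 and 0.13 without cKO replicate 2), with an interval of 93.0% to 120% of the WT level.

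C1ql2 encodes a secreted C1q-like protein that mossy fibres release and that gathers kainate receptors at their synapses. It read 3.07, 2.45, 2.48, 2.95 and 2.92 in cKO replicates 1 to 5, against 2.70, 2.91, 3.19, 2.62 and 3.06 in WT replicates 1 to 5. Again cKO replicates 2 and 3 were below all WT mice, and the other 3 cKO mice were within the WT range. The difference was -0.12 (SE 0.14, unadjusted p = 0.397), and lay between -0.20 (without cKO replicate 1) and -0.044 (without cKO replicate 2) when 1 mouse was left out. Calb1, the calcium buffer calbindin of mature granule cells, read 2.60, 2.31, 2.58, 2.84 and 2.40 in cKO replicates 1 to 5, against 2.40, 2.65, 2.46, 2.30 and 2.80 in WT replicates 1 to 5. The ranges nearly coincide, with a difference of 0.027 (SE 0.11, unadjusted p = 0.811) and an interval of 86.1% to 121% of the WT level. Calb1 is also made by CA1 pyramidal cells and interneurons.

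Lct, the gene of the intestinal enzyme lactase, was the brightest spot of the set, with Cy5 signals of 4294.5 to 8510 in cKO and 5149 to 10407 in WT mice. Its log2 ratio was 4.86, 4.72, 4.94, 5.20 and 5.38 in cKO replicates 1 to 5, against 5.03, 5.24, 5.003, 4.93 and 5.14 in WT replicates 1 to 5. The cKO values spread on both sides of the WT values, and the difference was -0.048 (SE 0.11, unadjusted p = 0.681). Pdzd2, a protein with several PDZ domains, had 2 tested probes. The brighter read between 0.55 and 0.94 in cKO and between 0.58 and 1.07 in WT mice, with a difference of -0.058 (SE 0.11), and the dimmer had a difference of -0.079 (SE 0.087). The third Pdzd2 probe gave Cy5 signals of 31.5 to 48, none well above background, and was not tested. Its values did not overlap all the same, at -0.18 to -0.084 in cKO and -0.051 to 0.30 in WT mice. That is a difference of -0.22 at background level, larger than that of Tdo2. Npnt, nephronectin, a matrix ligand of integrins, was dim. Its brighter probe read 0.03 to 0.50 in cKO and -0.53 to 0.43 in WT mice, with a difference of 0.12 (SE 0.16), and its other probe had a difference of -0.052 (SE 0.10). The value of -0.53 came from WT replicate 3, whose spot had a Cy3 signal of 115.5 (42 to 53.5 in the other 9 mice). Without that array the brighter probe had a difference of -0.041, so neither direction is held for Npnt.

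**Figure D2:**
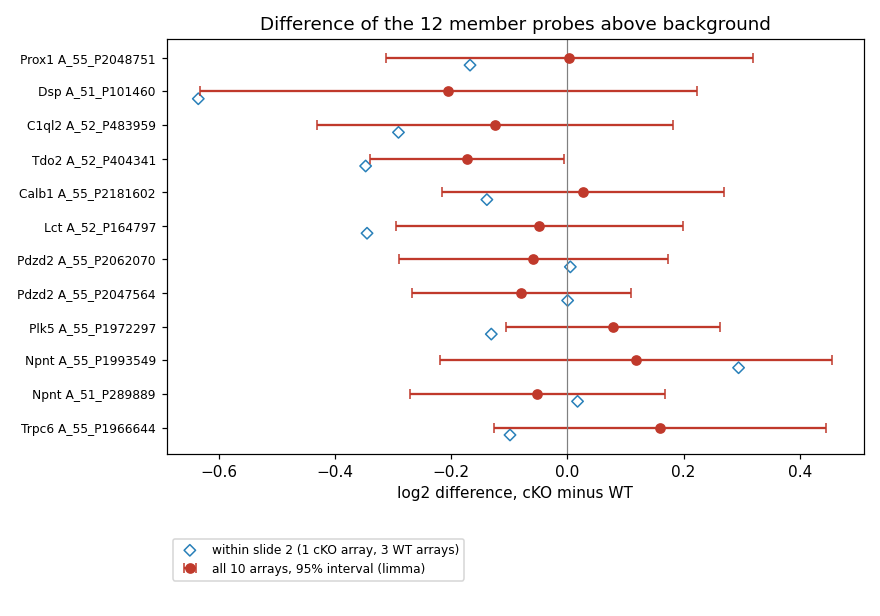
Log2 difference, cKO minus WT, of the 12 tested probes: red points and bars are the estimate over all 10 arrays with its 95% interval, and blue diamonds the difference within slide 2. Only the interval of Tdo2 (-0.34 to -0.0064) does not include 0, before adjustment over all probes, and 8 of the 12 diamonds lie left of 0.

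Within slide 2, where cKO replicate 2 shared a slide with 3 WT mice, 8 of the 10 genes were lower in the cKO mouse, with a median difference of -0.15. The median over all tested probes within that slide was 0.00056, and the share of probes lower there was not counted. Dsp read 1.55 in the cKO mouse and 2.01 to 2.28 in the WT mice, a difference of -0.64. Tdo2 read 0.31 in the cKO mouse and 0.62 to 0.72 in the WT mice, a difference of -0.35, and Lct differed by -0.34. Npnt (0.29) and Pdzd2 (0.0052) had higher values in the cKO mouse at their brightest probes. This rests on 1 mouse, which was the lowest of all 10 mice for 6 of the genes, and cKO mice were not replicated within the slide. With the slide as a fixed block, the difference of each of the 12 probes was the same as within slide 2. The block therefore rests on the same cKO mouse and is no further result.

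Most of the genes were high or low in the same mice. After each gene was centred on its own mean over the 10 arrays, the mean deviation of the 10 genes was 0.086, -0.21, -0.19, 0.24 and 0.025 in cKO replicates 1 to 5, against -0.011, 0.0017, -0.061, -0.073 and 0.20 in WT replicates 1 to 5. In cKO replicate 4 and in WT replicate 5, 9 of the 10 genes were above their own mean. In cKO replicate 3, 9 of the 10 were below it, and in cKO replicate 2 and WT replicate 4, 8 of the 10 were. The highest and lowest mice by mean deviation were thus both cKO mice. The counts above and below the own mean were not taken over all genes. The SD over mice was larger in cKO than in WT for 8 of the 10 genes, where it was larger for 53.1% of all tested probes. Most of the genes varied together over the same mice, so the 8 are not separate observations. A difference in spread between genotypes was not tested. The median SD of the 10 genes was 0.24 in cKO and 0.18 in WT mice, and that of all tested probes was 0.12 in cKO and 0.11 in WT mice.

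**Figure D3:**
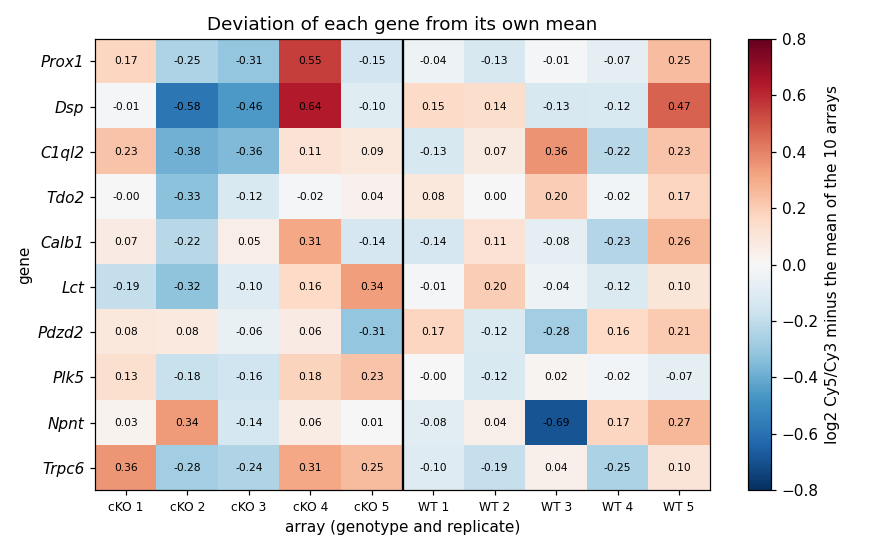
Deviation of each of the 10 genes (rows) from its own mean over the 10 arrays (columns, cKO left of the line, WT right of it), in log2 Cy5/Cy3, red above and blue below the mean. The columns of cKO replicate 4 and WT replicate 5 are mostly red and those of cKO replicates 2 and 3 mostly blue.

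The 10 genes did not vary alike in equal measure. Among the 45 pairs of genes, Pearson's r over the 10 arrays was positive for 35, with a median of 0.43. It was highest for Prox1 with Dsp (0.87) and for Plk5 with Trpc6 (0.86), the pairs whose promoters are printed above, and next for C1ql2 with Tdo2 (0.80). With the mean of the other 9 genes, r was 0.90 for Dsp, 0.86 for Prox1, 0.70 for Trpc6 and 0.68 for Calb1. It was between 0.47 and 0.60 for C1ql2, Plk5, Tdo2 and Lct, 0.10 for Pdzd2 and -0.050 for Npnt. Pdzd2 and Npnt thus did not follow the mean of the other genes, though r between Pdzd2 and Npnt was 0.62. Both were among the dimmer spots of the set, as was Tdo2. These values describe 10 arrays that share the reference RNA and differ in brightness. The pair values were not taken over all genes. Among 14754 genes outside the set, well above background on all 10 arrays, the median r with the mean of the set was 0.0021.

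The genes outside the set whose pattern was most like the mean of the 10 genes were chosen by Pearson's r over the 10 arrays, among 14754 genes well above background on all of them. The first 8 were Cdhr1, a photoreceptor cadherin (0.98), Ptpro, a receptor tyrosine phosphatase (0.97), Mcm6, a subunit of the replicative helicase (0.97), Slc18a2, the vesicular monoamine transporter (0.97), Sema5a, a semaphorin (0.96), Limd2, a LIM domain protein (0.96), Acsbg2, a fatty acyl-CoA synthetase (0.93), and Twist2, a basic helix-loop-helix factor (0.92). Spearman's rho lay between 0.89 and 0.98 for these 8. Without cKO replicates 4 and 2, the mice farthest from the median, r lay between 0.89 and 0.96. They were picked as the highest of 14754, so no test was made of these values. Sema5a read 2.31, 1.89, 1.72, 2.69 and 2.13 in cKO replicates 1 to 5, against 2.29, 2.25, 2.09, 1.97 and 2.69 in WT replicates 1 to 5. As in the 10 genes, cKO replicate 4 and WT replicate 5 were high and cKO replicates 2 and 3 low. Differences between genotypes lay between -0.11 and 0.035 for these 8 genes, and none passed (limma adjusted p = 0.99995 for each). Mcm6 neighbours Lct on chromosome 1 in the RefSeq table, yet its r with Lct itself was 0.47.

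Other genes known from granule cells did not pass either. Of 20 such genes outside the set 18 were tested, 9 had higher and 9 lower values in cKO mice, none passed and none had an unadjusted p under 0.05, and the median difference was 0.0026. Among those with the smallest p were Fam163b (0.15, SE 0.091) and Wipf3, an actin regulator (0.13, SE 0.084). The mean log2 ratio of the 18 genes was highest in cKO replicates 4 (2.84) and 1 (2.79) and WT replicate 5 (2.78), and lowest in cKO replicates 3 (2.55) and 2 (2.57) and WT replicate 2 (2.57). Within slide 2 their median difference was -0.061.

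The neighbours of granule cells in the circuit showed no passing gene either. CA1 pyramidal genes had 6 of 10 higher and a median difference of 0.031, with Man1a at 0.21 (SE 0.093), Ccn3 at -0.24 (SE 0.11) and Mpped1 at 0.16 (SE 0.085). CA2 and CA3 pyramidal genes had 7 of 11 higher and a median of 0.060, with Pcp4, a calmodulin regulator, at 0.16 (SE 0.079), Cacng5 at 0.15 (SE 0.15) and Map3k15 at -0.060 (SE 0.060). Genes of hilar mossy cells had 4 of 5 higher and a median of 0.058, with Fgf1 at 0.15 (SE 0.089), Ociad2 at 0.083 (SE 0.083) and Drd2 at 0.058 (SE 0.068). Genes of newborn neurons and progenitors had 7 of 11 higher and a median of 0.042, with Tubb3 at 0.15 (SE 0.069), Sox4 at -0.11 (SE 0.087) and Dcx, the microtubule protein of immature granule cells, at 0.087 (SE 0.097). Over all named genes, 1 probe a gene, 42.5% were lower in cKO mice.

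Markers of other cell types and regions are given beside these values. For them too, genotype is largely confounded with slide. Choroid plexus genes were higher in cKO mice for 11 of 11 tested, with a mean log2 ratio of 1.14 to 2.37 in cKO and 0.39 to 1.105 in WT mice. Oligodendrocyte genes were higher for 10 of 12, with a mean of 3.18 to 3.43 in cKO and 2.80 to 3.21 in WT mice. Thalamic genes were higher for 8 of 8, with a mean of 0.90 to 1.30 in cKO and 0.64 to 0.87 in WT mice. Interneuron genes were higher for 10 of 10, with a mean of 3.78 to 3.95 in cKO and 3.66 to 3.79 in WT mice, and endothelial and pericyte genes for 9 of 10 (2.02 to 2.19 in cKO and 1.92 to 2.004 in WT mice). Striatal genes were lower for 8 of 9 (median difference -0.20), with a mean of 2.26 to 2.47 in cKO and 2.10 to 3.37 in WT mice, the highest being WT replicate 1. None of these genes passed in limma, and the oligodendrocyte, interneuron and striatal means overlapped between genotypes. Their part in the granule cell values was not tested. The mean of the 10 granule cell genes was 2.19 to 2.64 in cKO and 2.33 to 2.60 in WT mice. The other cell lists also overlapped. Astrocyte genes were at 4.06 to 4.65 in cKO and 3.98 to 4.35 in WT mice, microglial genes at 2.34 to 2.72 in cKO and 2.14 to 2.60 in WT mice, and neocortical genes at 1.83 to 2.40 in cKO and 1.78 to 2.25 in WT mice. Neocortical genes were highest of all mice in cKO replicate 2, the mouse with the lowest granule cell mean. They were next highest in WT replicates 1 (2.25) and 4 (2.19), whose granule cell means were 2.39 and 2.33. A link between these lists was not tested.

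**Figure D4:**
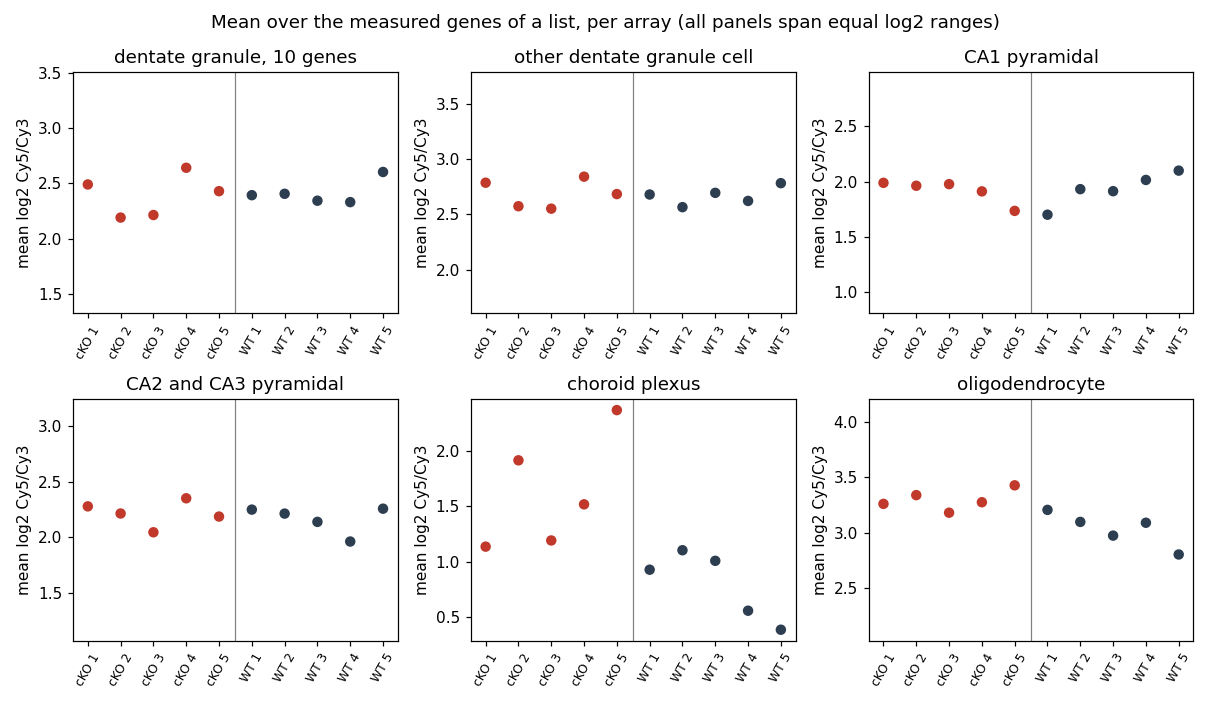
Mean log2 Cy5/Cy3 over the tested genes of 6 lists (panels) on each array, cKO in red at left and WT in dark blue at right; the panels cover equal spans of the y axis. Both granule cell lists are low in cKO replicates 2 and 3 and high in cKO replicate 4 and WT replicate 5. The other granule cell genes are also low in WT replicate 2 and high in cKO replicate 1. The CA2 and CA3 mean is also highest in cKO replicate 4 (2.35), with 2.26 in WT replicate 5 and 2.04 in cKO replicate 3. It is lowest in WT replicate 4 (1.96), and is 2.21 in cKO replicate 2. The choroid plexus mean is above every WT mouse in all 5 cKO mice (1.14 to 2.37 in cKO, 0.39 to 1.105 in WT).

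Partners of the gene products were examined last, by families. Desmosomal genes around Dsp had 5 of 9 tested higher and a median difference of 0.011, with periplakin, Ppl, at -0.17 (SE 0.12), Perp at 0.20 (SE 0.14) and the plakophilin gene Pkp4 at 0.086 (SE 0.069). Genes of C1q-like proteins, cerebellins and their receptors had 10 of 14 higher and a median of 0.081. Among those with the smallest p were the C1q-like receptor Adgrb3 (0.15, SE 0.087) and the pentraxin Nptx2 (0.16, SE 0.11). Genes of tryptophan and kynurenine metabolism around Tdo2 had 9 of 11 higher and a median of 0.063, with Qprt at 0.13 (SE 0.062), Kmo at 0.12 (SE 0.071) and Tph2 at -0.14 (SE 0.095). Tdo2, at -0.17, had the other sign from most genes of this list. None of the 11 had an unadjusted p under 0.05 in limma, and 42.5% of all named genes were lower, so no contrast is drawn.

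Calcium-binding EF-hand genes related to Calb1 had 11 of 17 higher and a median of 0.088, with neurocalcin, Ncald, at 0.17 (SE 0.072), Necab3 at 0.23 (SE 0.11) and parvalbumin, Pvalb, at 0.19 (SE 0.099). Polo-like kinases and their substrates had 7 of 8 higher and a median of 0.055, with Plk2 at 0.20 (SE 0.095), Plk3 at 0.16 (SE 0.091) and Rasgrf1 at 0.15 (SE 0.13). TRPC channels and genes of their activation had 10 of 13 higher and a median of 0.064, with the inositol trisphosphate receptor Itpr1 at 0.13 (SE 0.050) and Orai1 at 0.11 (SE 0.052). Integrins and matrix genes around Npnt had 10 of 13 higher and a median of 0.065, with fibronectin, Fn1, at 0.25 (SE 0.078), vitronectin, Vtn, at 0.11 (SE 0.063) and Gdnf at -0.11 (SE 0.074). No gene of these 7 lists passed in limma in either direction, and 5 had an unadjusted p under 0.05, all with higher values. They were 1 of 14 C1q-like, 1 of 17 EF-hand, 2 of 13 TRPC and 1 of 13 integrin and matrix genes, with none in the other lists. Over all named genes, 1 probe a gene, 542 of 16268 had an unadjusted p under 0.05 with a higher value.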

How the data were processed

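Hippocampal RNA of 5 cKO and 5 WT mice was hybridised against a common reference, 750 ng of labelled cRNA per sample. Per the file headers, the authors' scanner files hold intensity values from Agilent Feature Extraction 11.0.1.1 (median pixel intensity of spot and local background, not normalised), and processed intensities with a deposited log10 ratio, which the software background-subtracted and dye-normalised. The authors' deposited value table holds log2 values, whose correlation with the ratios computed here was at least 0.99997; its column medians were 0.0120 to 0.0204, so scale and direction were log2 of sample over reference without gene centring. The submitters' processing notes name limma without settings.

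Here, spots marked non-uniform were removed, backgrounds corrected by normexp with an offset of 50 in limma 3.58.1 (R 4.3.3), and ratios normalised within arrays by loess. Outlier spots were removed and spots of a probe averaged. For dim spots the offset shrinks the log ratio. Probes with Cy5 well above background on at least 5 of 10 arrays were tested (28682), with lmFit and eBayes, two-sided, Benjamini-Hochberg adjustment over all of them. Accessions were matched, without versions, to RefSeq symbols for 26581 of 39429 probes (67.4%). The array design names build mm9; promoters and gene order are RefSeq's, on GRCm38.p6. Arrays limit precision by their number.

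The members and lists were chosen with earlier results of these data known. Named were all members, Map3k12, up to 3 genes per list with the smallest p (those of lists of other cell types and regions given as counts), and the 8 genes most like the members' mean. Some genes that this rule names are not reported here. Lists get counts and medians, no set test. The labels do not say that replicate numbers pair mice; deviations of same-numbered arrays had correlations of -0.56 to 0.16, so pairing was an alternative. Other alternatives changed the offset, signal, marked spots, normalisation, filter, slide, array weights and arrays included. The fit was tested on simulated data.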

Additional observations from a re-analysis of the deposited data

How the results depend on the processing

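None of the 12 tested probes of the set passed in any of the 23 alternatives in which it could be fitted. The probe counts below are over all probes. Of the 272 values of these probes under an alternative, 236 kept their direction and 36 did not, and the cause of the changes was not tested. The 236 include values whose direction could not turn. Changes of the filter, 1 probe a gene and the replicate block left the estimate itself as it was. The median of the 10 genes was -0.022 and lay between -0.088 (without cKO replicate 4) and 0.037 (without cKO replicate 2) when each array was left out in turn, and 3 probes of all passed, or 2 to 4 in the same refits. When no spot was removed before the background fit, the median was 0.17 (8 of 10 higher) and 1 probe passed, with C1ql2 at 0.16, Lct at 0.22 and Pdzd2 at 0.035; the fit then takes in marked spots. With the Cy5 channel alone 1 probe passed and 9 of the 10 genes were lower (median -0.086), with Prox1 at -0.046, Calb1 at -0.042, Plk5 at -0.060 and Npnt at -0.075. With 1 probe a gene 1 probe passed, of fewer tested. With the processed signals Prox1 was at -0.0063, C1ql2 at 0.18 and Calb1 at -0.12, and with the authors' deposited table Prox1 was at -0.00175. Median centring, which moved the median of all probes to -0.056, gave Prox1 -0.018, Calb1 -0.0090 and Plk5 -0.0066. With the slide as a fixed block, which rests on cKO replicate 2, Prox1 was at -0.17, Calb1 at -0.14, Pdzd2 at 0.0052 (dimmer probe 0.000591), Plk5 at -0.13, the dimmer Npnt probe at 0.018 and Trpc6 at -0.10. With the slide as a random block (correlation -0.13) Lct was at 0.00424. Array weights gave Pdzd2 0.077 and the dimmer Npnt probe 0.055. Directions also turned when arrays were left out. The ranges over these refits were -0.13 to 0.082 for Prox1, -0.047 to 0.097 for Calb1, -0.14 to 0.027 for Lct, -0.13 to 0.011 for Pdzd2, -0.041 to 0.20 for Npnt and -0.12 to 0.016 for Npnt (dimmer probe). They kept their direction at -0.39 to -0.085 for Dsp, -0.20 to -0.044 for C1ql2, -0.20 to -0.11 for Tdo2, 0.031 to 0.13 for Plk5, 0.091 to 0.25 for Trpc6 and -0.13 to -0.0029 for Pdzd2 (dimmer probe). With the replicate block, 2 probes passed in all and the median was -0.022; no array of the 10 correlated best with its own number, and no call on a member changed. Depth of signal limits Npnt, Tdo2 and the dimmer Pdzd2 probe most, which lay closest to background.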
